A study of Homo sapiens with 15 samples.

Results

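Caco-2 cells of the same treatment group were not alike in this series: in each of 3 groups, the libraries numbered 1 and 2 in the sample titles carried more CEACAM5 and ALB mRNA, and less COL3A1, HMGA2, TNC, SP5 and AXIN2 mRNA, than the libraries numbered 3 to 5. The contrast described here sets the 6 libraries of replicates 1 and 2 against the 9 libraries of replicates 3, 4 and 5, with a term for group, and uses all 15 libraries of the series. The split was chosen by the read counts of these same libraries, in which earlier results showed it, so the differences between the 2 replicate sets are given as a description, with standard errors and without tests. Tests are given for total counts, for each treatment against control with the set held constant, and for whether the response to treatment differed between the sets. The tests of treatment and of its difference between sets both fit the set, which these same libraries chose. Their p-values are therefore not independent of that choice.

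Caco-2 is an established human colorectal adenocarcinoma line. The control group was unexposed Caco-2, the PS20 group was exposed to polysorbate 20 and the PS80 group to polysorbate 80, each at 0.05% for 24 h, and each group held 5 libraries of polyadenylated RNA from cells grown as monolayers. The polysorbates are nonionic food emulsifiers. All libraries came from this 1 line, and the labels do not say whether a replicate number stands for a culture, a passage, a day or a batch, so p-values measure only the spread between these libraries, which may be technical.

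As background, Caco-2 cells stop dividing at confluence and then build a brush border, the apical carpet of microvilli with its digestive enzymes and transporters, as enterocytes do. They also make secreted proteins of the fetal liver and gut, such as alpha-fetoprotein and albumin. The line carries a truncated APC protein, the scaffold that normally leads beta-catenin to its destruction, and therefore has a high basal output of the Wnt pathway, read through direct targets such as AXIN2 and SP5.

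Promoter sequences are shown for AFP, ALB and SP5, the 3 of the 6 marker genes with an entry in the RefSeq promoter table (GRCh38.p14, 250 bases before to 50 bases after the start). AFP lies at chr4:73435971-73436270, ALB at chr4:73404037-73404336 and SP5 at chr2:170715087-170715386, all on the plus strand. Both strands were searched for the letters GTTAAT, the half-site of HNF1, a factor of liver and gut epithelium, and for CTTTGAT and CTTTGAA, forms of the TCF/LEF core through which beta-catenin acts. Capitals mark matches on either strand, and the searched motifs do not overlap in these windows.
AFP: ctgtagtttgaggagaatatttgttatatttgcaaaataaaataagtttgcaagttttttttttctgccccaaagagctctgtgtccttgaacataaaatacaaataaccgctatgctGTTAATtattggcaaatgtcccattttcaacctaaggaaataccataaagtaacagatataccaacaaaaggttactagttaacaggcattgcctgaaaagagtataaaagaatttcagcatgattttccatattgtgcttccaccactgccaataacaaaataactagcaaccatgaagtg
ALB: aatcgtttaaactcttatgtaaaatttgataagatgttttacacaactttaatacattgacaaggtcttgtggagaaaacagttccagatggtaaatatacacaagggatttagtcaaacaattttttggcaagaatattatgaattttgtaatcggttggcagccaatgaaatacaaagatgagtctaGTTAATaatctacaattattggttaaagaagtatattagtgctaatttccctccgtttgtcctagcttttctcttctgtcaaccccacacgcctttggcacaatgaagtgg
SP5: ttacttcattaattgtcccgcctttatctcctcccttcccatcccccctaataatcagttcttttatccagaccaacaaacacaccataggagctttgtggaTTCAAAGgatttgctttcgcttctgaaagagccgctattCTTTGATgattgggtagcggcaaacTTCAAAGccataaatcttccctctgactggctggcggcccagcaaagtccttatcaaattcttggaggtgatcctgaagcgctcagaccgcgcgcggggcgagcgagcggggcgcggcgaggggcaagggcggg
The AFP and ALB windows each held 1 match to GTTAAT, which 6.88% of the 35116 promoters in the table hold. In the SP5 window there were 1 match to CTTTGAT (2.62% of promoters) and 2 to CTTTGAA on the minus strand (4.43% of promoters). A match is a description of the letters and not evidence of a bound site.

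The libraries differed in depth and in a few other measures. Total counts ran from 4610042 to 42271053 in replicates 1-2 (median 8469928.5) and from 4183096 to 22776649 in replicates 3-5 (median 8829612), a 1.027-fold difference between the sets within groups (two-sided exact permutation test within groups, 1000 arrangements, p = 0.927). The share of counts from the mitochondrial genome was 1.829% to 2.969% in replicates 1-2 and 1.446% to 2.578% in replicates 3-5. Within control it was 1.914% and 1.829% against 1.497%, 1.629% and 1.524%, and within PS80 2.155% and 2.969% against 1.667%, 1.446% and 1.627%. The sets did not overlap in these groups, but overlapped within PS20, at 2.440% and 2.362% against 2.578%, 2.029% and 2.476%. PS80 replicate 2, the deepest library, stood apart in histone mRNAs, with a mean of 5.50 log2 CPM (counts scaled to library size) against at most 2.64 in the other 14 libraries. Of the 5 PS80 libraries, 4 were counted by the authors with another version of the counting program than the other 11, so the counts of separated genes over all genes are also given without the PS80 group, while the counts within gene lists are given over all 3 groups only. After group means were removed, the leading component of log2 CPM held 22.9% of the variance and placed replicates 1-2 between 3.55 and 22.3 and replicates 3-5 between -19.8 and -3.05.

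**Figure D1:**
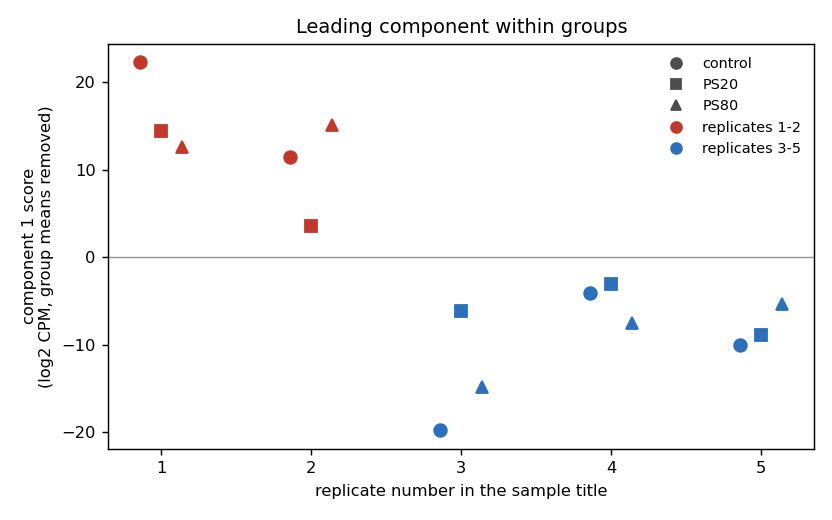
Score of each of the 15 libraries on the leading component of log2 CPM after removal of group means (y axis, log2 units) against the replicate number in its title (x axis); marker shape is the group and colour the replicate set. All 6 libraries of replicates 1-2 lie above 0 (3.55 to 22.3) and all 9 of replicates 3-5 below it (-19.8 to -3.05), with PS20 replicate 2 at 3.55 and PS20 replicate 4 at -3.05 nearest to each other.

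This component was drawn from the counts that chose the split, so its order by set does not test the label of 2 sets. The scores formed a range rather than 2 tight clusters. Replicates 1 and 2 of the control group differed from each other by a root mean square of 0.395 log2 CPM across genes, against a mean of 0.410 between the sets. The same pair differed by 0.349 against 0.336 in the PS20 group and by 0.327 against 0.364 in the PS80 group. Replicates 3 to 5 lay closer together, at means of 0.351, 0.259 and 0.292 in control, PS20 and PS80. Taken separately, the median share over genes of the variance of log2 CPM was 49.1% for group and 5.83% for the replicate set. Group has 3 levels and the set 2, so these shares are not on an equal footing. The set took more than the group in 1950 of 12769 genes.

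A gene was called separated in every group where, in control, in PS20 and in PS80, both libraries of replicates 1-2 lay on the same side of all 3 libraries of replicates 3-5. By this rule 768 of 12769 genes (6.01%) were separated, 430 (3.37%) higher and 338 (2.65%) lower in replicates 1-2. Most of the differences were small: 5% of all genes lay below -0.26 and 5% above 0.37 on the log2 scale, around a median of -5.27e-05. Separated genes that also differed by more than 2-fold numbered 9 higher (0.0705%) and 5 lower (0.0392%), 14 in all (0.110%). In order of the size of the log2 difference, replicates 1-2 minus replicates 3-5, those reported here were H3C10 (1.65), CEACAM5 (1.55), MYO7B (1.42), ANXA13 (1.39), WNT6 (-1.32), COL3A1 (-1.27), HMGA2 (-1.26), CDHR2 (1.22), TNC (-1.12), LIMCH1 (-1.06), CPS1 (1.05), SLC26A3 (1.02) and EMP1 (1.01). AGR3 (0.996), PADI2 (0.93), WNK4 (0.92) and ALB (0.91) stood just outside. Without the PS80 libraries, where 2 groups rather than 3 had to be apart, the genes separated in every group numbered 1191 (638 higher and 553 lower), 17 of them by more than 2-fold.

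Albumin and alpha-fetoprotein, secreted products of fetal liver that Caco-2 also makes, were higher in replicates 1-2. ALB (ENSG00000163631.17, chromosome 4 from 73397114 to 73421482) stood at 106 and 103 CPM in control replicates 1 and 2 and at 37.0, 64.8 and 37.2 CPM in replicates 3 to 5. With PS20 its levels were 36.8 and 35.6 CPM against 22.6, 35.1 and 17.7 CPM, and with PS80 43.4 and 59.6 CPM against 22.5, 36.8 and 21.1 CPM. The sets did not overlap in any group, although PS20 replicate 4 was close to replicate 2, and the log2 difference was 0.91 ± 0.13 (SE here and below). AFP (ENSG00000081051.8, chromosome 4 from 73431138 to 73456174) was at 129 and 117 CPM against 48.0, 74.3 and 45.9 CPM in control, and at 49.7 and 59.8 CPM against 23.7, 39.9 and 25.5 CPM with PS80. With PS20 the sets overlapped, at 26.2 and 23.4 CPM against 16.9, 31.4 and 18.7 CPM, and the log2 difference over all groups was 0.80 ± 0.13.

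The other secreted plasma proteins mostly lay on the same side. Of 38 genes listed, 26 passed the filter on low counts, 23 of them with a higher estimate in replicates 1-2, and the median log2 difference was 0.33. Only ALB and SERPINA1, the protease inhibitor alpha-1-antitrypsin (0.58), were separated in every group, 2 of 26 against 3.37% of all genes, and 0 were separated in the other direction, against 2.65%. AHSG, the mineral-binding protein fetuin-A, measured 596 and 609 CPM against 312, 374 and 266 CPM in control and 599 and 614 CPM against 348, 419 and 347 CPM with PS80. With PS20 its levels were 954 and 635 CPM against 608, 685 and 481 CPM, which overlap (log2 difference 0.68 ± 0.09). SERPINC1, antithrombin, differed by 0.72 ± 0.14. The list's median was 0.58 within control, 0.07 within PS20 and 0.34 within PS80. Of 20 hepatocyte markers only 5 passed the filter, and CYP2C8, CYP3A4, TDO2, SERPINA6, CRP and APCS had 0 counts in all 15 libraries. The 5 that passed had a median of 0.38, led by CPS1, the first enzyme of the urea cycle (1.05 ± 0.21), and by the receptor subunits ASGR2 (0.45) and ASGR1 (0.38).

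**Figure D2:**
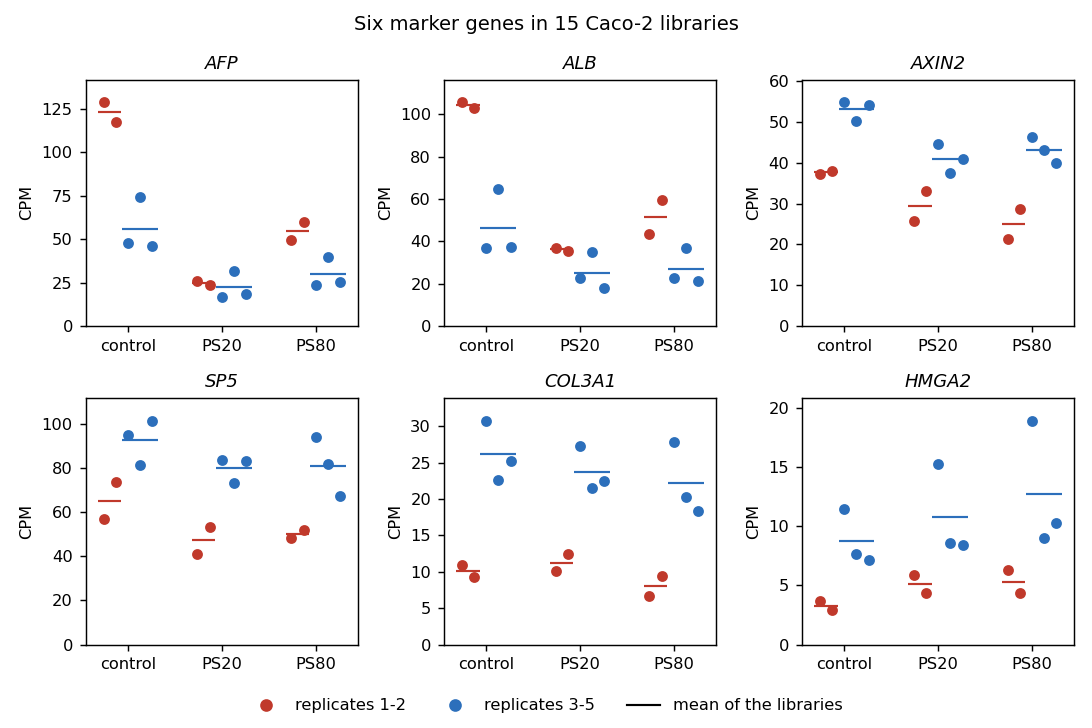
Expression (CPM, y axes from 0) of AFP, ALB, AXIN2, SP5, COL3A1 and HMGA2 in each of the 15 libraries by group (x axes); points are libraries 1 to 5 from left to right within a group, coloured by replicate set, and lines are set means. Apart from AFP with PS20, where 31.4 CPM in replicate 4 exceeds 26.2 and 23.4 CPM in replicates 1 and 2, the sets do not overlap within any group.

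Brush border genes were measured for 30 of 38 listed, and 7 were separated higher and 1 lower in replicates 1-2, against 3.37% and 2.65% of all genes. The largest differences were in genes of low abundance that build microvilli. MYO7B, a myosin of the microvillus tip links, was at 1.72 and 0.948 CPM against 0.239, 0.293 and 0.683 CPM in control (log2 difference over all groups 1.42 ± 0.26). CDHR2, a protocadherin of the same tip links, measured 1.5 and 1.69 CPM in control replicates 1 and 2 and 1.43, 0.733 and 0.546 CPM in replicates 3 to 5 (1.22 ± 0.22). SLC26A3, the chloride-bicarbonate exchanger of the colon, differed by 1.02 ± 0.17, and the peptidase MEP1A by 0.68. SLC15A1, the peptide transporter (0.29), FABP1, the fatty acid carrier (0.26), and CA2, carbonic anhydrase (0.38), completed the separated genes. MTTP, which loads lipid onto apolipoprotein B, differed by 0.74 ± 0.23 and sucrase-isomaltase, SI, by 0.61, each with overlap in 1 group. ALPP, placental alkaline phosphatase, was the gene separated in the other direction (-0.61), and its close relatives make its counts uncertain. The list's median was 0.17, made up of 0.38 within control, -0.02 within PS20 and 0.20 within PS80.

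Among separated genes with a mean of at least 5 CPM, CEACAM5, the carcinoembryonic antigen, differed most. It measured 3.65 and 2.0 CPM against 0.716, 0.587 and 1.5 CPM in control, 15.7 and 32.3 CPM against 7.08, 8.05 and 4.19 CPM with PS20, and 8.0 and 8.61 CPM against 2.68, 4.89 and 3.68 CPM with PS80. Every library of replicates 1-2 exceeded all of replicates 3-5 in its group, by 1.55 ± 0.19 on the log2 scale. CEACAM6, its neighbour in the family, was at 11.4 and 11.1 CPM against 10.5, 10.6 and 9.56 CPM in control, where the gap was small, and at 45.5 and 92.5 CPM against 24.4, 29.9 and 17.1 CPM with PS20. Its log2 difference of 0.80 ± 0.17 fell to 0.47 without PS20 replicate 2. MUC13, a membrane mucin, differed by 0.69 ± 0.11 and CDH17, the intestinal cadherin, by 0.19 ± 0.03. These were the 4 separated genes of 16 measured in the adhesion list, all higher, against 3.37% of all genes (median 0.17). The CEACAM genes are near-identical over parts of their length, so their counts are uncertain.

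Factors of intestinal identity differed little. NR5A2, a nuclear receptor, was separated higher by 0.30, and CDX2, the master factor of the intestine, by 0.18 ± 0.04, with 200 and 209 CPM against 188, 164 and 187 CPM in control. GATA6 was the gene separated lower (-0.27). ONECUT2 (0.47), ISX (0.37) and KLF5 (0.36) had higher estimates and SOX2, a factor of foregut and stem cells, a lower one (-0.42 ± 0.07), each with overlap in at least 1 group. These 2 genes higher and 1 lower of 23 measured factors stand against 3.37% and 2.65% of all genes, and the list had a median of 0.13.

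In cholesterol synthesis nearly all genes lay to one side, by a small amount. All 25 genes were measured, 24 had a higher estimate in replicates 1-2, and 9 were separated higher and 0 lower, against 3.37% and 2.65% of all genes, with a median of 0.15. INSIG1, the sterol-regulated retention protein, was at 318 and 278 CPM against 278, 226 and 219 CPM in control, at 470 and 518 CPM against 373, 377 and 348 CPM with PS20, and at 264 and 200 CPM against 188, 176 and 180 CPM with PS80. Its sets were apart in each group, by 0.37 ± 0.05, although control replicates 2 and 3 were close. FDPS, farnesyl diphosphate synthase (0.25 ± 0.05), was also separated, as were MSMO1, FDFT1, NSDHL and DHCR7 at 0.15 to 0.22.

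Wnt feedback genes lay on the other side. SP5 (ENSG00000204335.4, chromosome 2 from 170715337 to 170718078), a repressor induced directly by beta-catenin, was at 56.8 and 73.7 CPM against 95, 81.6 and 102 CPM in control, at 41.0 and 53.5 CPM against 83.7, 73.2 and 83.0 CPM with PS20, and at 48.4 and 52.1 CPM against 94.2, 81.8 and 67.4 CPM with PS80. AXIN2 (ENSG00000168646.14, chromosome 17 from 65528563 to 65561648), the inducible scaffold of beta-catenin destruction, measured 37.3 and 38.0 CPM against 54.9, 50.4 and 54.2 CPM in control, 25.9 and 33.1 CPM against 44.6, 37.5 and 41.0 CPM with PS20, and 21.3 and 28.6 CPM against 46.4, 43.3 and 40.0 CPM with PS80. Neither gene's sets overlapped in any group, and the log2 differences were -0.63 ± 0.08 for SP5 and -0.58 ± 0.07 for AXIN2. Of the exonic bases of AXIN2, 25.3% also belong to another gene, and the counting did not use strand. LGR5, the R-spondin receptor of stem cells (-0.51 ± 0.11), DKK1, a secreted Wnt inhibitor (-0.44), and PROX1, a homeobox factor (-0.22), were also separated lower.

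The Wnt list as a whole was mixed. Among 28 of 37 genes measured, 5 were separated lower, against 2.65% of all genes, and 1 higher, against 3.37%. That 1 was EPHB3, an ephrin receptor of the crypt base, at 0.52 ± 0.08. PORCN (0.48), CD44 (0.43) and MYC (0.33) had higher estimates with overlap, RNF43 stood at -0.06, and the median of the list was -0.06. WNT6, a ligand of low abundance outside the list, differed by -1.32 ± 0.26, with 0.858 and 1.47 CPM against 3.58, 1.98 and 5.19 CPM in control.

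Extracellular matrix genes split in both directions. COL3A1 (ENSG00000168542.16, chromosome 2 from 188974373 to 189012746), the chain of type III collagen, was at 10.9 and 9.27 CPM against 30.8, 22.6 and 25.3 CPM in control, at 10.1 and 12.4 CPM against 27.4, 21.5 and 22.5 CPM with PS20, and at 6.68 and 9.46 CPM against 27.9, 20.3 and 18.4 CPM with PS80. The sets were far apart in each group and the treatments were close, with a log2 difference of -1.27 ± 0.11 for the set, and the set took 87.0% of the variance of COL3A1 against 3.63% for the group. TNC, the matrix glycoprotein tenascin-C, measured 16.7 and 11.9 CPM against 43.2, 35.7 and 36.5 CPM in control, and differed by -1.12 ± 0.10 over all groups. COL2A1 (-0.37) and COL12A1 (-0.31) were separated lower as well. VCAN, the proteoglycan versican, was separated higher by 0.91 ± 0.12, with 23.8 and 15.6 CPM against 8.83, 10.2 and 10.1 CPM in control, and so were COL6A1 (0.39) and COL1A1 (0.38). In all, 3 of 30 measured genes were separated higher and 4 lower, against 3.37% and 2.65% of all genes, around a median of 0.03, which was 0.06 without control replicate 1.

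Markers of fibroblasts, endothelium and blood were followed beside the collagens. Only 6 of 18 passed the filter, and their summed level ran from 168.8 to 226.3 CPM in replicates 1-2 and from 155.0 to 190.6 CPM in replicates 3-5. Below the filter, VWF had 82 counts and CD3E 44 in all 15 libraries together, THY1 and CDH5 4 each, COL1A2 3, CD68 2, DCN, ACTA2, KDR and PTPRC 1 each, and HBB 0. The highest estimates of the 6 were for LUM (0.67 ± 0.20) and COL1A1, while CD14 was at -0.20. PDGFRB, a growth factor receptor of fibroblasts and pericytes, was at 33.7 and 39.1 CPM against 23.2, 27.6 and 23.9 CPM in control (0.32 ± 0.09), with overlap in the treated groups. COL3A1, which fibroblasts also make, was lower in replicates 1-2, while COL1A1 and LUM, the latter at a mean of 1.65 CPM, were higher. The part of fibroblast, endothelial and blood cells in the matrix differences was not tested.

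HMGA2 (ENSG00000149948.14, chromosome 12 from 65824460 to 65966291), a chromatin protein of fetal and tumour cells, was lower in replicates 1-2. Its levels were 3.65 and 2.95 CPM against 11.5, 7.63 and 7.11 CPM in control, 5.91 and 4.32 CPM against 15.3, 8.61 and 8.38 CPM with PS20, and 6.28 and 4.35 CPM against 18.9, 8.98 and 10.2 CPM with PS80. Replicate 3 was the highest library in every group, and the sets did not overlap (-1.26 ± 0.18). Of 16 measured oncofetal and HMGA2-related genes it was the 1 separated lower, and PEG10, at 0.16, the 1 separated higher, against 2.65% and 3.37% of all genes. LIN28B, which represses the let-7 miRNAs that target HMGA2, was at 0.15, and the median of that list was 0.04.

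Targets of TGF-beta and BMP had separated genes in both directions, while EGF receptor ligands and wound genes leaned higher in replicates 1-2 (11 of 13 estimates). BAMBI, a decoy receptor that is also a Wnt target, was separated lower (-0.58 ± 0.07). The TGF-beta list had 1 gene separated in each direction of 15 measured, against 3.37% and 2.65% of all genes (median 0.09). In the list of EGF receptor ligands and wound genes, 3 of 13 measured were separated higher, ERBB3 and ERBB2 among them, and 0 lower, against 3.37% and 2.65% of all genes, with a median of 0.24. ERBB3, a receptor of the EGF receptor family, was at 279 and 287 CPM against 192, 207 and 194 CPM in control (0.39 ± 0.05).

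Genes of the cell cycle had slightly lower estimates in replicates 1-2. Of 45 measured, 37 were negative, 3 were separated lower (CCNB1 at -0.18, FEN1 at -0.16 and KIF11 at -0.15) and 0 higher, against 2.65% and 3.37% of all genes. The median was -0.09, made up of -0.19 within control, -0.02 within PS20 and -0.05 within PS80. CDC45, a replication factor, had the lowest estimate, -0.35 ± 0.09, with 12.2 and 12 CPM against 17.9, 19.7 and 20.1 CPM in control and overlapping levels with PS20. MKI67, a proliferation marker, was at 0.11. Glycolytic and hypoxia-responsive genes showed no common side, with a median of 0.01 over 31 genes. PGAM1 was the only separated one (-0.15), against 2.65% of all genes separated lower and 3.37% higher.

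Mitochondrially encoded mRNAs and histone mRNAs are given as measures of the libraries. The 13 mitochondrial mRNAs had a median of 0.16. MT-ND5 was the only separated one (0.36 ± 0.06), against 3.37% of all genes separated higher and 2.65% lower. The 16 histone mRNAs had a median of 2.26, which was 0.20 without PS80 replicate 2. None in this list was separated in every group, against the same shares of all genes. H3C10, outside that list, reached 19.4 CPM in PS80 replicate 2 and 2.43 CPM in PS80 replicate 1, against 1.82 to 1.94 CPM in PS80 replicates 3 to 5. Its log2 difference was 0.68 within control, 0.47 within PS20 and 1.79 within PS80, so it was over 2-fold only within PS80. Without PS80 replicate 2, list medians were 0.30 for plasma proteins, 0.14 for the brush border, 0.15 for cholesterol synthesis and -0.06 for Wnt genes. They were 0.34 for hepatocyte markers and 0.09 for intestinal factors. The part of the mitochondrial and histone measures in the differences above was not tested. Apart from the 17 lists used to name genes, 15 lists held 312 measured members, those of the oncofetal list given above included. Of these members, 13 were separated higher and 10 lower, against 3.37% and 2.65% of all genes. The medians of these lists ran from -0.19 to 0.11.

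**Figure D3:**
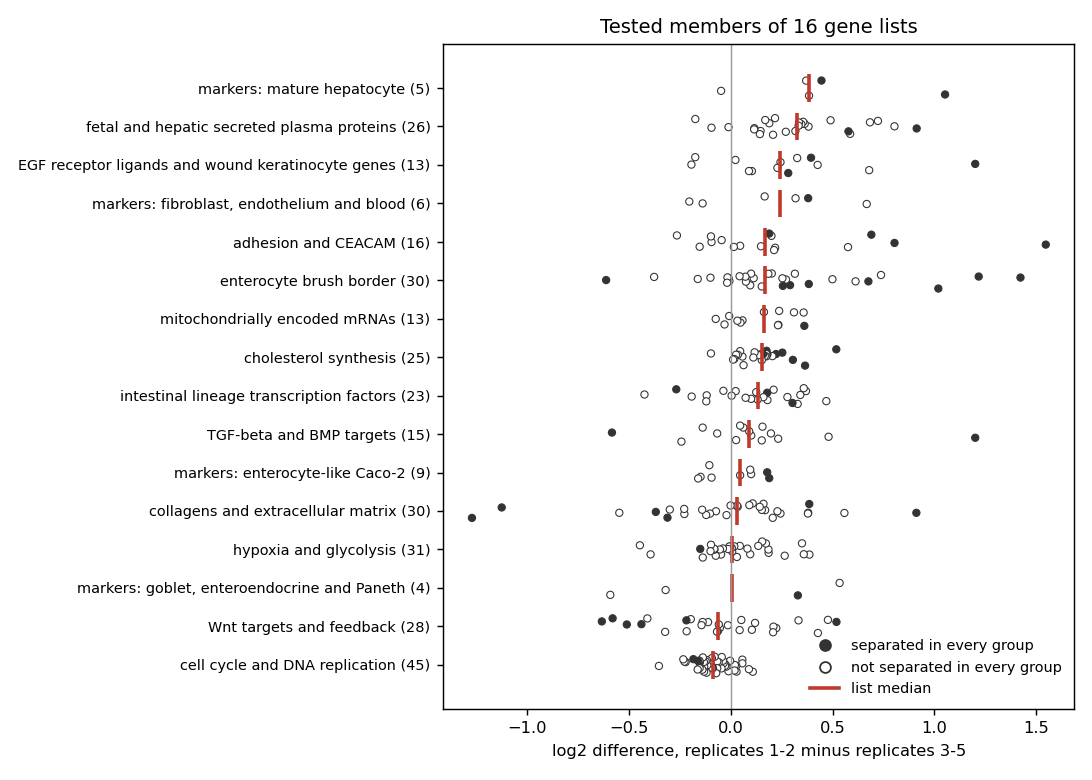
Log2 difference between replicates 1-2 and replicates 3-5 (x axis) for each measured member of 16 gene lists (y axis, with the number measured), ordered by median; filled points were separated in every group and red bars are medians. The list of histone mRNAs, with a median of 2.26, is not drawn. Of the 16 lists drawn, hepatocyte markers and plasma proteins have the highest medians (0.38 and 0.33) and the cell cycle the lowest (-0.09). The matrix and Wnt lists have members on both sides.

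Beyond the lists, the genes with the largest separated differences were of mixed function. Higher in replicates 1-2 were EMP1, an epithelial membrane protein (1.01 ± 0.12), PADI2, a citrullinating enzyme (0.93 ± 0.15), PHEX, a peptidase (0.82 ± 0.10), BCL2L14, a member of the BCL2 family (0.82 ± 0.11), METTL7A (0.81 ± 0.09), SORCS2, a sortilin-type receptor (0.78 ± 0.13), CREB3L3, a transcription factor of liver and gut (0.74 ± 0.13), and SPAG4 (0.72 ± 0.14). Lower were NEBL, an actin-binding protein (-0.89 ± 0.15), MYL7, a myosin light chain (-0.72 ± 0.11), CST1, a cystatin (-0.69 ± 0.10), CLSTN2 (-0.67 ± 0.09), RORA, a nuclear receptor (-0.66 ± 0.11), APELA, a peptide ligand of the apelin receptor (-0.65 ± 0.10), MBNL3, a splicing factor (-0.65 ± 0.05), and TSPAN8, a tetraspanin (-0.63 ± 0.10). MBNL3 was at 158 and 153 CPM against 290, 259 and 262 CPM in control, 101 and 101 CPM against 141, 127 and 141 CPM with PS20, and 124 and 131 CPM against 212, 206 and 208 CPM with PS80.

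**Figure D4:**
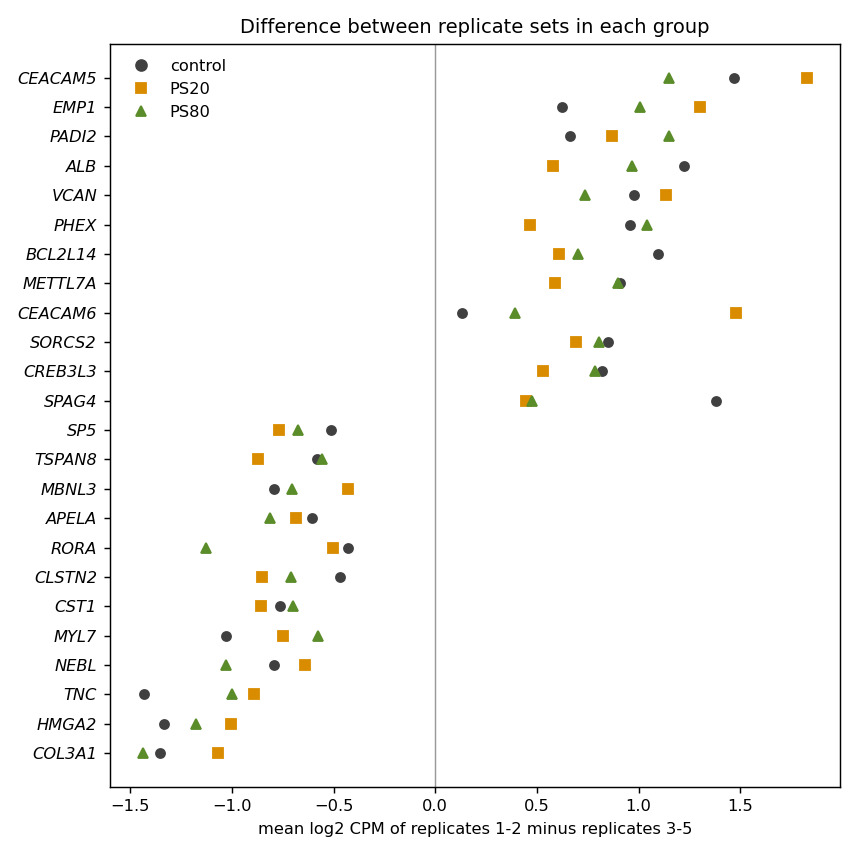
Difference in mean log2 CPM between replicates 1-2 and replicates 3-5 within control, PS20 and PS80 (x axis) for the 12 highest and 12 lowest separated genes with a mean of at least 5 CPM (y axis). Every gene keeps its side in all 3 groups by the rule that chose it; the spread between groups is widest for CEACAM6 (0.13 in control, 1.48 with PS20) and narrow for COL3A1 (-1.36, -1.07 and -1.44).

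The genes most like each marker were sought among 10289 genes by Pearson's r of deviations from group means over the 15 libraries, which share the replicate split, so the values describe these libraries only. AFP and ALB, neighbours on chromosome 4, were nearest to each other (r = 0.962), followed for AFP by APOA1 (0.934) among those reported here and for ALB by THRB (0.953) and MYO1A (0.937). COL3A1 was most like DKK1 and BAMBI (both 0.978), and AXIN2 most like TCF4 (0.965), EMILIN2 (0.964) and COL3A1 (0.963). SP5 was nearest to ZNF503 (0.969) and EMILIN2 (0.966), and HMGA2 to SLMAP (0.960).

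The separated genes were spread over the genome. Chromosome medians of the log2 difference lay between -0.04 and 0.03 over 23 chromosomes. The share separated lower was highest on chromosomes 13 (5.41%) and 10 (5.07%), and the share separated higher on chromosome 11 (4.83%). In the lowest of 4 equal bins of mean CPM, 1.69% of genes were separated higher and 0.532% lower, and in the highest bin 4.70% and 4.64%.

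The replicate set also entered the comparison of treatments with control. With a term for the set, the quasi-likelihood test of edgeR, adjusted by Benjamini-Hochberg, called 6819 genes for PS20 (53.4%), 3475 higher (27.2%) and 3344 lower (26.2%). It called 5039 for PS80 (39.5%), 2600 higher (20.4%) and 2439 lower (19.1%). In PS80, 4 of the 5 libraries were counted with another program version than the controls, and the part of the version, here and below, was not tested. Without the term the counts were 6163 and 4266, of which 6162 and 4265 were also called with it. The common biological coefficient of variation was 8.91% with group alone and 6.71% with the set added. The set was chosen from these same counts, so this fall and the added calls do not test it. The treatment p-values with the term are likewise not independent of that choice. The 2 treatments share their control libraries, so the values of each are given side by side.

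With the set held constant, AFP, ALB, SP5 and AXIN2 passed with both treatments, and HMGA2 with PS80 alone. Of all genes, 53.4% passed with PS20 and 39.5% with PS80. AFP fell by 1.77 on the log2 scale with PS20 (edgeR adjusted p = 2.75e-09) and by 1.05 with PS80 (7.82e-06), and ALB fell by 1.19 (1.26e-06) and 0.93 (4.63e-05). SP5 fell by 0.30 (0.00721) and 0.28 (0.0163), and AXIN2 fell by 0.36 (8.26e-04) and 0.40 (3.41e-04). COL3A1 did not pass in either comparison, at -0.01 (0.948) and -0.24 (0.119). HMGA2 was at 0.48 with PS20 (0.0647) and at 0.57 with PS80 (0.0336). CEACAM5 rose by 3.04 with PS20 (1.10e-09) and by 1.87 with PS80 (2.05e-05), so in CEACAM5, higher in replicates 1-2, both treatments and the set lay in the same direction, while in AFP and ALB they lay in opposite directions.

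Whether the response to a treatment differed between the replicate sets was examined by an interaction term, which is the set difference in a treated group minus that in control. Its p-values are from the libraries in which the split was seen and describe these libraries only. For PS20, 14 genes passed (0.110%), 7 with a more positive response in replicates 1-2 (0.0548%) and 7 with a more negative one (0.0548%). For PS80, 11 passed (0.0861%), 5 more positive (0.0392%) and 6 more negative (0.0470%). None of the 6 marker genes passed in either (lowest edgeR adjusted p = 0.296, for AFP with PS20, with an interaction of -0.89 ± 0.31). At an unadjusted p under 0.05 there were 1341 (10.5%) and 1106 (8.66%) genes.

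NDRG1, a growth-arrest gene induced by hypoxia, passed in both. It stood at 146 and 136 CPM against 83.1, 71.5 and 59.3 CPM in control, where the sets were far apart. With PS20 the levels were 63.9 and 57.1 CPM against 61.4, 68.4 and 58.9 CPM, and with PS80 66.7 and 78.7 CPM against 71.7, 73.5 and 64.1 CPM, where they overlapped. The PS20 response was therefore -1.22 ± 0.12 in replicates 1-2 and -0.17 in replicates 3-5, an interaction of -1.05 ± 0.15 (edgeR adjusted p = 0.00427), and the PS80 interaction was -0.91 ± 0.15 (0.0115).

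The fibrinogen genes showed the same arrangement with PS20. FGG, the gamma chain of the clotting protein, was at 1454 and 1486 CPM against 708, 952 and 699 CPM in control, and at 488 and 336 CPM against 451, 572 and 521 CPM with PS20, an interaction of -1.22 ± 0.21 (adjusted p = 0.0223). FGA, the alpha chain, had -1.13 ± 0.21 (0.0228), the clotting factor F7 had -0.82 ± 0.15 (0.0228) and PLEKHB1 had -1.01 ± 0.20 (0.0319). In the plasma protein list, 3 of 26 measured genes passed in this direction, against 0.0548% of all genes, and 0 in the other, and its median interaction was -0.45. With a more positive response in replicates 1-2 there were BCAT1, a branched-chain aminotransferase (0.56 ± 0.10, 0.0223), CEP55, a factor of cell division (0.68 ± 0.12, 0.0228), TEAD1, the partner of YAP (0.55 ± 0.10, 0.0285), SLC7A5, an amino acid transporter (0.46 ± 0.09, 0.0299), and TAGLN, an actin-binding protein (0.59 ± 0.11, 0.0299). TAGLN shares 47.8% of its exonic bases with another gene. In BCAT1 the sets lay apart in control, at 316 and 292 CPM against 480, 435 and 429 CPM, and overlapped with PS20, at 329 and 376 CPM against 378, 335 and 343 CPM.

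With PS80, 5 genes had a more positive response in replicates 1-2. ANKRD1, a nuclear repeat protein induced by YAP, measured 30.7 and 30.0 CPM against 45.6, 48.5 and 38.5 CPM in control and 118 and 97.2 CPM against 65.1, 72.2 and 83.8 CPM with PS80, so the order of the sets turned round. Its PS80 response was 1.82 ± 0.13 in replicates 1-2 and 0.75 in replicates 3-5, an interaction of 1.07 ± 0.17 (edgeR adjusted p = 0.0115). PS80 replicate 2, at 97.2 CPM, was counted with the program version used for the controls, and the other 4 PS80 libraries were not. ACTB, beta-actin, had 0.44 ± 0.07 (0.0120), ANXA6, a membrane-binding annexin, 0.68 ± 0.12 (0.0120), CNN2, a calponin, 0.41 ± 0.08 (0.0362) and TUBA1B, a tubulin, 0.49 ± 0.10 (0.0438). In the other direction were PDK1, which restrains pyruvate oxidation (-0.93 ± 0.16, 0.0181), ACSL5, an acyl-CoA synthetase (-0.56 ± 0.11, 0.0362), PDE3B, a phosphodiesterase (-0.78 ± 0.15, 0.0438), and TDP2, a DNA repair enzyme (-0.52 ± 0.10, 0.0438). PDK1 was at 50 and 38.6 CPM against 33.2, 24.1 and 23.2 CPM in control and at 43.9 and 40.5 CPM against 49.3, 42.8 and 50.1 CPM with PS80.

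**Figure D5:**
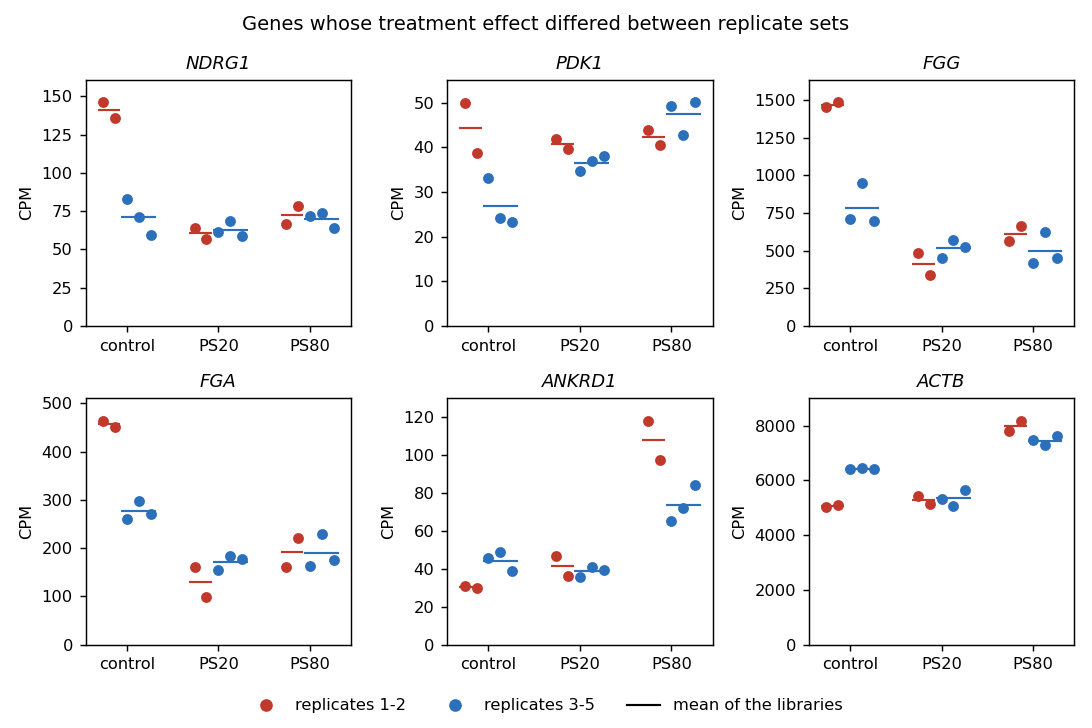
Expression (CPM, y axes from 0) of NDRG1, PDK1, FGG, FGA, ANKRD1 and ACTB in the 15 libraries by group (x axes); points are libraries 1 to 5 from left to right within a group, coloured by replicate set, and lines are set means. In all 6 genes the sets are apart in control, while with PS20 they overlap or lie close; ANKRD1 turns from about 30 CPM in control replicates 1-2 to 118 and 97.2 CPM with PS80.

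Both interaction counts rested on single libraries. The named genes depended on the fit as well: of 390 refits of the 20 named interactions over all alternatives, 123 no longer passed and 0 changed sign. The 14 genes of PS20 became 132 without control replicate 1, 66 without PS20 replicate 1, 29 and 27 without PS80 replicates 1 and 2, 8 without PS20 replicate 3 or 5, 1 without control replicate 3 or 5 or PS20 replicate 4, and 0 without PS20 replicate 2 (1157 at an unadjusted p under 0.05 by edgeR). The 11 genes of PS80 became 52 without PS80 replicate 1, 35 without control replicate 2, 4 to 6 without PS20 replicate 3, 4 or 5 or PS80 replicate 3, 4 or 5, 1 without control replicate 5, and 0 without control replicate 1 or 4 (1164 and 1070 at an unadjusted p under 0.05 by edgeR). Same-numbered libraries of control and PS80 deviated together from their group means (r across genes 0.102 to 0.304), and a block for the replicate number gave a PS80 count of 39. For deviations from the means of group and set together, r ran from -0.002 to 0.095.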

How the data were processed

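The authors deposited raw read counts per gene, 1 table for each library. Headers of those files name featureCounts 2.0.0 in 11 libraries and 2.0.3 in PS80 replicates 1, 3, 4 and 5, GENCODE 42, reads of mapping quality 10 or more and no strand option, so the counts are unstranded per the file headers. STAR 2.7.9a, cutadapt and DESeq2 1.32.0 are from the submitters' processing notes. Of 69215 genes, 12769 passed edgeR's filterByExpr (minimum count 10, minimum total 15). Counts were scaled by TMM (factors 0.978 to 1.02) and fitted in R 4.3.3 with edgeR 4.0.16 (quasi-likelihood, adjusted p threshold 0.05), with terms for group and replicate set, or a mean per group and set for interactions. Levels are CPM per gene, not per length, and are compared between libraries only. Differences within a group are of log2 CPM with a prior count of 2. Scripts were tested on simulated data.

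Members, the 32 gene lists and the tests were chosen with earlier results of these data known. Genes were named by a rule. It took the 12 highest and 12 lowest separated genes with a mean of at least 5 CPM, and the 6 markers. It also took up to 4 members with the largest difference in each of 17 lists, the oncofetal list not among them. Last came up to 5 interactions in each direction, and 5 genes most like each marker. List members given by their estimate alone, and the 14 genes over 2-fold, were added after their values were seen. Alternatives were DESeq2 size factors and tests, no filter, each library left out, a replicate block, single groups and other thresholds. A few genes within the rule's reach are not reported here.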

Additional observations from a re-analysis of the deposited data

Results flagged for a closer look

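In 4 of 90 sets of 5 libraries examined (the 3 groups for each of 26 genes and 4 library measures), 1 library lay far from the other 4. Chance gives this in about 5% of unselected sets, but most of the genes were chosen by their separation. That share therefore does not hold for the 90 sets. VCAN reached 32.4 CPM in PS80 replicate 1, against 13.7 to 18.7 CPM in the other PS80 libraries. PS20 replicate 3 had 17250000 counts (rounded), against 6749000 to 8830000 in the other PS20 libraries. Ribosomal protein mRNAs made up 5.69% of counts in control replicate 2, against 5.039% to 5.215% in the other controls. Histone mRNAs had a mean of 5.50 log2 CPM in PS80 replicate 2, against 1.63 to 1.95 in the other PS80 libraries.

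In the main fit, on the libraries in which the split was chosen, the interaction term itself passed in the genes below. For PS20 the interactions on the log2 scale were 0.56 for BCAT1, 0.68 for CEP55, 0.55 for TEAD1, 0.46 for SLC7A5, 0.59 for TAGLN, -1.05 for NDRG1, -1.22 for FGG, -0.82 for F7, -1.13 for FGA and -1.01 for PLEKHB1. For PS80 they were 1.07 for ANKRD1, 0.44 for ACTB, 0.68 for ANXA6, 0.41 for CNN2, 0.49 for TUBA1B, -0.91 for NDRG1, -0.93 for PDK1, -0.56 for ACSL5, -0.78 for PDE3B and -0.52 for TDP2. The fitted interactions share the control libraries, and the count of genes that pass depends on single libraries, control replicate 1 and PS20 replicate 2 among them. With 1 library left out, CNN2, PDE3B, TDP2 and TUBA1B with PS80 failed to pass most often, in 11 of 15 fits each. NDRG1 with PS20 failed least often, in 1 of 15.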

How the results depend on the processing

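The 14 genes separated in every group and over 2-fold became 31 without the low-count filter, 82 at a fold of 1.5, 25 in control alone and 31 in PS80 alone, and 11 to 19 with 1 library left out. The 768 separated genes became 4171 in control, 3862 in PS20 and 4779 in PS80 alone, 1191 without the PS80 libraries, and 826 to 1294 with 1 library left out (1294 without PS20 replicate 2); fewer libraries make separation easier. Without the filter their split was 349 higher and 429 lower, against 430 and 338. The PS20 interactions (14) numbered 102 without the filter, 38 by DESeq2, 45 with the replicate block, 27 without the PS80 libraries and 0 to 132 with 1 library left out. The PS80 interactions (11) numbered 117 without the filter, 42 by DESeq2, 39 with the block and 0 to 52 with 1 library left out; the cause was not tested. Same-numbered libraries of PS20 and control were not taken as pairs (r from -0.026 to 0.248), and the block changed no other count by over 1.5 times. Treatment counts stayed between 6235 and 6960 (PS20) and between 4468 and 5184 (PS80) with 1 library left out. The difference in total counts (0.04 log2) ran from -0.31 to 0.38. Of 1895 refitted differences of 84 named genes, 1 changed sign, H4C5 without the PS80 libraries (-0.13). KRT8 moved from -0.15 to -0.09 without control replicate 1 and PLAUR from 0.43 to 0.28 without PS80 replicate 5. Genes under about 1 CPM, such as MYO7B, rest on few counts in the shallowest libraries.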

Other observations

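Outside the lists described above, immediate early genes and negative regulators of ERK had a median log2 difference of 0.11 over 27 measured, with 1 separated higher, JUNB (0.44), and 2 lower, EPHA4 (-0.49) and PHLDA1 (-0.30), against 3.37% and 2.65% of all genes. FOSB (0.77), EGR1 (0.72) and FOS (0.62) had higher estimates with overlapping sets. Among 23 measured targets of NRF2, the oxidative stress factor, 3 were separated lower, HMOX1 (-0.42), OSGIN1 (-0.39) and GPX2 (-0.34), and 0 higher, against 2.65% and 3.37% of all genes. Of 71 measured ribosomal protein genes, 7 were separated higher, all by 0.11 to 0.23 (RPL4, RPL6, RPL13A, RPL10A, RPL7A, RPL12 and RPL3), and 0 lower, against 3.37% and 2.65% of all genes.

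RMRP, a non-coding RNA of a ribonuclease complex chosen here after its values were seen, measured 876 CPM in PS80 replicate 2 and 3.15 to 37.1 CPM in the other 14 libraries, so its log2 difference of 3.23 ± 0.72 rests largely on the library that also stood apart in histone mRNAs. In control it was at 37.1 and 31.9 CPM in replicates 1 and 2 and at 12.9, 3.15 and 10.8 CPM in replicates 3 to 5.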
